A study of Mus musculus with 5 samples.

Results

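The 10 genes described here are the core of 2 linked transcription factor networks, the Myc network (Myc, Mycn, Mycl, Max, Mga) and the p53 network (Trp53, Mdm2, Mdm4, Cdkn1a, Ccng1). They were taken by gene symbol, as all protein_coding transcripts of these symbols in the deposited table, and no measured value enters the rule. This gave 36 of 56989 protein_coding transcripts, in a table of 135276 transcripts in all. Of the 36, 35 reached 1 CPM (counts scaled to a common library size) in at least one library and were tested, and each of the 10 genes kept at least one. The main value of a gene is that of its coding transcript with the highest mean CPM.

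All libraries came from mouse embryonic stem cells (mESCs), grown with LIF and serum and treated with cycloheximide, which halts elongating ribosomes. RNase I (1.3 U, 45 min) then removed unprotected RNA from the lysates, and fragments of 25 to 35 nt, the footprints that ribosomes protect, were sequenced. In standard RIBO-seq (n = 3 libraries) ribosomes were pelleted through 30% sucrose. In AHARIBO RIBO-seq (n = 2 libraries) nascent peptides that carry the methionine analogue L-azidohomoalanine (AHA) were coupled to 50 µM DBCO-PEG4-biotin and pulled down on magnetic beads with their ribosomes. The labels call the libraries of both methods untreated, and the AHA dose of these libraries is not given in the sources used here. The authors describe standard RIBO-seq as performed on the input, that is, the lysate before the pulldown. They do not state separately whether the cells of the standard libraries were given AHA. The comparison asks whether footprints on these mRNAs are recovered alike by sedimentation and by capture of the nascent chain, and a difference in treatment of the cells, if there was one, cannot be told apart from the method.

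Libraries held 6403651 to 11150527 counts after removal of duplicates, the fewest in standard replicate 3, and 3 counts corresponded to 0.262 to 0.476 CPM. Each of 10 embryonic stem cell markers was measured in every library, led by Pou5f1 at 261 ± 14.0 CPM (SD, n = 3) in standard RIBO-seq. The 6 fibroblast markers summed to at most 6.50 CPM and the 5 primitive endoderm markers to at most 6.82 CPM. The 6 neuron markers summed to 39.5 to 44.0 CPM, most of it Tubb3 at 36.5 ± 0.214 CPM (SD, n = 3), while Dcx and Snap25 did not reach the 1 CPM limit. In such bulk samples, fewer cells that express a gene cannot be told apart from less RNA per cell.

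Myc, N-Myc and L-Myc are basic helix-loop-helix leucine zipper proteins that bind E-box DNA only as heterodimers with Max and promote growth and ribosome production. Mga also dimerises with Max, carries a T-box as a further DNA-binding domain, and belongs to a non-canonical Polycomb complex that represses germline genes in embryonic stem cells. p53 is a stress-activated factor whose protein is kept low by the ubiquitin ligase Mdm2 and its partner Mdm4, and Cdkn1a (p21, a cyclin-dependent kinase inhibitor) and Ccng1 (cyclin G1) are classical p53 targets. Mouse embryonic stem cells are known for high Myc family expression and for abundant p53 protein.

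Stretches of coding sequence show what the footprints can and cannot separate. They are given from Gencode M21 (GRCm38), 5′ to 3′. The highest Myc transcript (ENSMUST00000022971.7, chromosome 15, 61985391 to 61990350, plus strand) and ENSMUST00000161976.7 have the same sequence and the same counts and differ only in the annotated start codon. The first 90 coding bases hold both starts, in capitals, with CTG first and ATG at base 46. A footprint downstream of the ATG belongs equally to both.
Myc: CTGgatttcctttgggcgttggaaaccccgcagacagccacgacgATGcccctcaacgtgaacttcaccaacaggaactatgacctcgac
The Max forms differ by 27 coding bases, in capitals in the longer form (ENSMUST00000110395.10), which follow coding base 36 and are shown with 30 bases on either side. The shorter form, ENSMUST00000082136.6 (chromosome 12, 76937274 to 76962201, minus strand), is the one with the highest count.
Max longer form: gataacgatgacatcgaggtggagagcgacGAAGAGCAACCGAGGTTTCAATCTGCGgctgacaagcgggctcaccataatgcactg
Max shorter form: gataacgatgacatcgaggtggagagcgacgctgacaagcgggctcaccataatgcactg
Cdkn1a (ENSMUST00000023829.6, chromosome 17, 29093769 to 29100722, plus strand) shows how few positions can carry AHA, because AHA replaces methionine. Its first 120 coding bases hold both of its in-frame ATG codons, in capitals, the later one at codon 37.
Cdkn1a: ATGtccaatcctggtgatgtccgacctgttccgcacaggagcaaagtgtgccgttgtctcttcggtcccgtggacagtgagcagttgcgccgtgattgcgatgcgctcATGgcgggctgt

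Coding sequences of the 10 genes ranged from 453 nt in Max to 9126 nt in Mga. Mga had 55 in-frame ATG codons among 3042, Trp53 had 10 among 387, and Cdkn1a had 2 among 159. As a share of codons this ran from 1.08% in Mycn to 2.58% in Trp53.

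The level of a gene, in CPM per kb of coding sequence, ran from 0.979 in Mycl to 125 in Trp53 in standard RIBO-seq. Trp53 was highest at 125 ± 3.18 (SD, n = 3) in standard and 115 ± 6.78 (SD, n = 2) in AHARIBO RIBO-seq, above 96.8% of 12365 genes with a tested coding transcript, whose median was 6.91. Mycn followed at 41.8 ± 2.71 and 35.4 ± 3.02. Then came the shared partner Max at 35.1 ± 1.07 and 30.2 ± 0.242, and Myc at 26.3 ± 2.08 and 21.9 ± 2.36. The p53 target Cdkn1a stood at 25.4 ± 2.70 and 22.4 ± 0.262, and its libraries overlapped those of Myc within each method, so that these neighbours were not separated.

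Mdm2 had 17.5 ± 0.743 (SD, n = 3) CPM per kb in standard and 20.0 ± 0.0667 (SD, n = 2) in AHARIBO RIBO-seq, and Ccng1 had 16.3 ± 0.851 and 15.0 ± 0.695. These neighbours overlapped in standard RIBO-seq only. Mdm4 had 9.35 ± 0.795 and 11.1 ± 1.84, and Mga had 7.12 ± 0.616 and 9.29 ± 0.780, overlapping in AHARIBO RIBO-seq only. Mycl was lowest at 0.979 ± 0.308 and 1.42 ± 0.345, above 13.7% of genes. All other neighbours in this order kept apart within both methods.

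**Figure D1:**
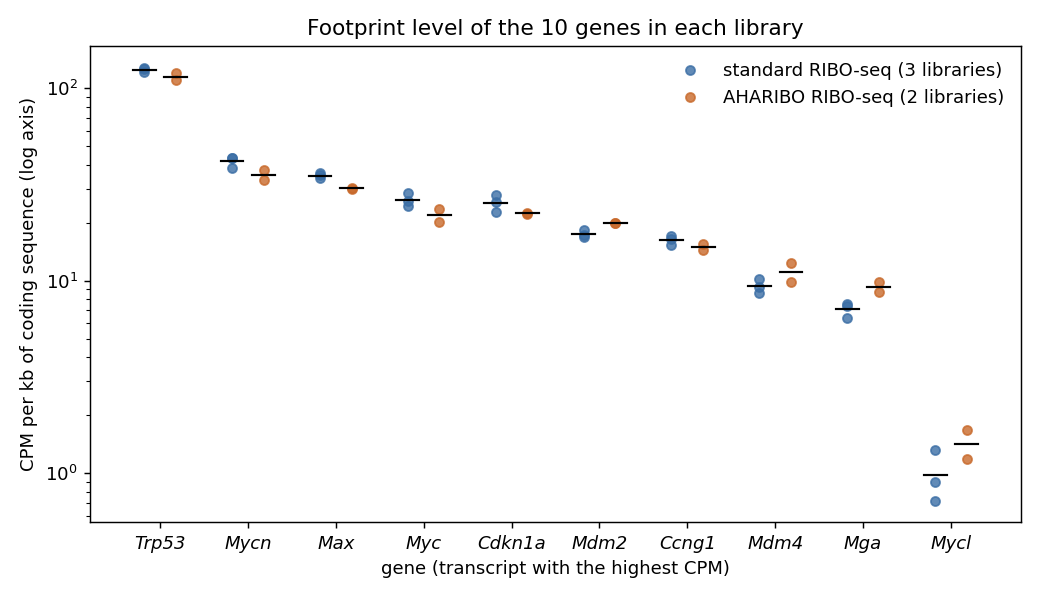
Level of the 10 genes in CPM per kb of coding sequence (log axis), for the highest coding transcript of each, in order of the mean over 5 libraries. Points are libraries, blue for standard (3) and orange for AHARIBO RIBO-seq (2), and bars are means. Trp53 lies above all others, between 110 and 128, and Mycl lowest, at up to 1.66.

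The order depended on the denominator. Per kb of the whole transcript, 3 of the 10 places were kept: Trp53 and Mycn stayed in front and Mycl stayed last, while Mga, whose coding part fills most of its transcript, moved from place 9 to 7. Within the Myc family, Mycn supplied most of the summed level per kb of coding sequence, with 56.3%, 63.0% and 61.9% in the standard libraries and 56.9% and 63.7% in the AHARIBO libraries. Myc gave 34.3% to 41.7% and Mycl 1.03% to 2.84% over the 5 libraries. This order holds for the highest transcript of each gene: with CPM summed over coding transcripts, of which Myc has 8 that share reads and Mycn 2, Myc stood in place 2 and Mycn in place 4.

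By the root mean square difference of log2 CPM per kb of coding sequence over the 5 libraries, the genes nearest to Myc among 12336 were Tial1 (0.0637) and Med19 (0.0724). Mrps18a (0.0614) and Acot7 (0.0653) were nearest to Mycn. Prmt1 (0.0231) and Tra2b (0.0254) were nearest to Trp53.

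Between the methods, 1 of the 10 genes, Mga, passed the test, with more footprints in AHARIBO RIBO-seq. The test was edgeR's quasi-likelihood test over 66972 transcripts with Benjamini-Hochberg adjustment at 0.05, which called 4.51% of all transcripts (2.27% higher and 2.24% lower in AHARIBO RIBO-seq). Over the highest coding transcript of each gene it called 5.12%, so 1 of 10 is not far from the background. Before adjustment, 5 genes had p under 0.05, as did 19.4% of the highest coding transcripts of all genes. Of the 5, Mga, Mdm2 and Mdm4 were higher and Myc and Mycn lower. The libraries of the methods did not overlap for 7 genes, with AHARIBO RIBO-seq above for 2 and below for 5. Over all tested transcripts, non-coding ones and those with few reads included, 33.8% showed no overlap. The median log2 fold change of the 10 genes was -0.12, beside 0.00 over all transcripts.

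**Figure D2:**
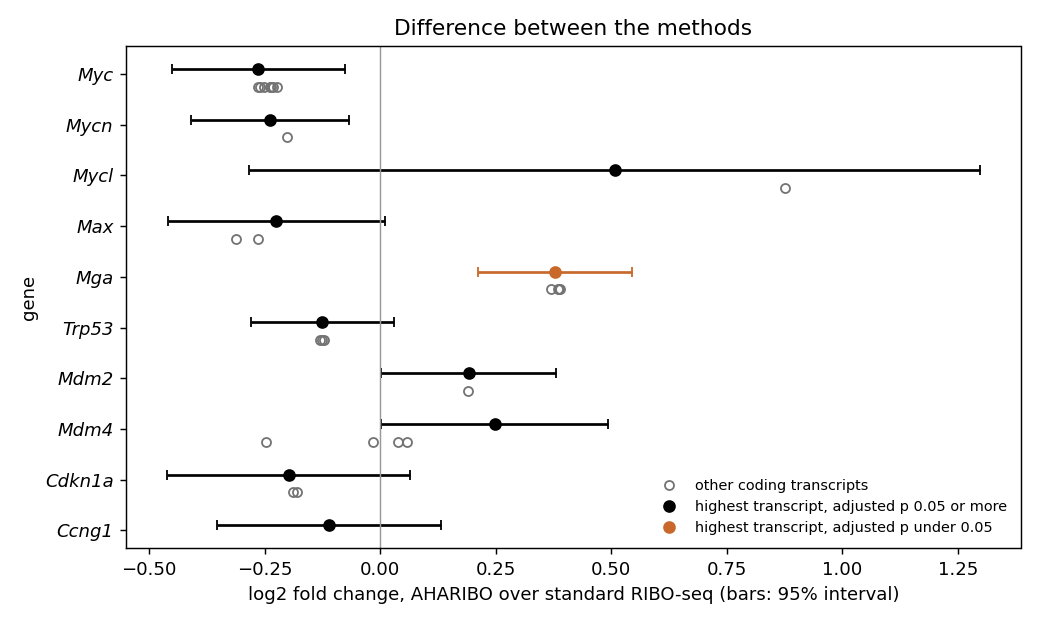
Log2 fold change of AHARIBO over standard RIBO-seq (x axis) for each gene (y axis). Filled points are the highest coding transcript with its 95% interval from the fit, orange where the adjusted p is under 0.05, and open circles are the other tested coding transcripts. Mga is the one gene past the threshold, at 0.38, and the Mdm4 transcripts fall on both sides of 0.

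Mga (ENSMUST00000110774.7, chromosome 2, 119897228 to 119969581, plus strand) had 68.8, 67.7 and 58.5 CPM in standard and 89.9 and 79.8 CPM in AHARIBO RIBO-seq. Both AHARIBO libraries lay above all standard libraries. The fold was 1.30 (log2 fold change 0.38, SE 0.08, adjusted p = 0.0037). All 5 coding transcripts of Mga were called, at log2 fold changes of 0.37 to 0.39, but they share most of their reads. Without AHARIBO replicate 1, the log2 fold change was 0.29 and the adjusted p 0.172. With counts summed over the coding transcripts of a gene, it was 0.41 with an adjusted p of 0.0643. With the replicate number as a block in the fit, it was 0.31 with an adjusted p of 0.0798.

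Mga also had the longest coding sequence of the 10 and a coding GC content of 43.9%, and both properties moved with the difference between methods over all genes. Among 342 genes with coding sequences over 6000 nt, the median log2 fold change was 0.17 and 19.3% were called higher in AHARIBO RIBO-seq, against -0.12 and 0.484% among 1239 genes of up to 500 nt. Among 1525 genes with up to 45% coding GC the median was 0.20, and among 391 genes above 65% it was -0.29. The part of length and GC content in the value of Mga was not tested.

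**Figure D3:**
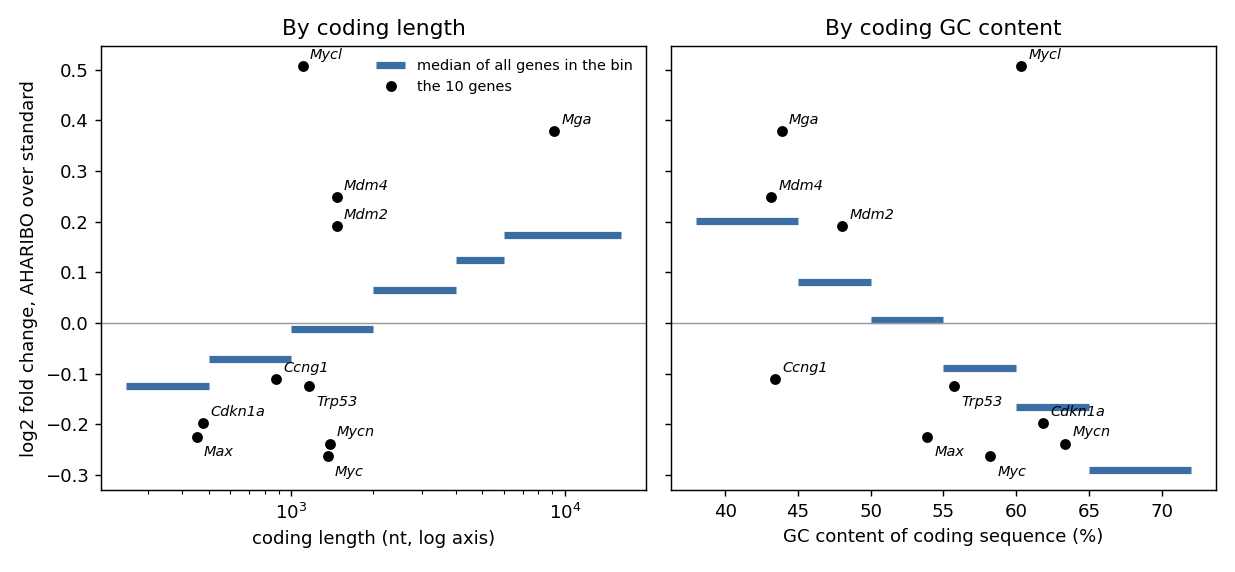
Log2 fold change of AHARIBO over standard RIBO-seq (y axes) against coding length in nt (left, log axis) and coding GC content in percent (right). Blue bars are medians over all genes in a bin, drawn for the outermost bins only to the edge of the plotted range, and black points are the 10 genes. The medians climb from -0.12 to 0.17 with length and descend from 0.20 to -0.29 with GC content.

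The 10 genes followed the same division by GC content in part. Of 4 genes with less than 50% coding GC (Mga, Mdm2, Mdm4, Ccng1), 3 had log2 fold changes above 0, and of the other 6, 5 had values below 0. Mycl was the exception on the GC-rich side and Ccng1 on the other. With 10 genes this is a description only.

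Myc had 39.0, 33.4 and 35.2 CPM in standard and 32.1 and 27.6 CPM in AHARIBO RIBO-seq. Both AHARIBO values were below all standard values, by a log2 fold change of -0.26 (SE 0.09, 95% interval -0.45 to -0.08), yet the adjusted p was 0.0931. Without one library at a time it ran from -0.38 to -0.16, the latter without AHARIBO replicate 2. The other Myc coding transcripts gave -0.26 to -0.22, and none was called.

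One Myc transcript, ENSMUST00000188482.7, consists of the coding part with its stop codon (1365 nt) and lies wholly inside the highest transcript (2338 nt), so that their difference counts reads outside the coding part. These were 88, 83 and 50 reads in standard and 92 and 60 reads in AHARIBO RIBO-seq. They made up 25.1% ± 2.44 (SD, n = 3) and 23.4% ± 2.35 (SD, n = 2) of the Myc reads, on 41.6% of the length, and the ranges of the methods overlapped. The reads outside the coding part can also include those that straddle its ends, and whether they lie before or after it was not resolved.

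Mycn, the family member with the highest level, lies on chromosome 12 (12936093 to 12941914, minus strand, ENSMUST00000043396.14). It had 53.6, 60.2 and 60.0 CPM in standard and 46.1 and 52.0 CPM in AHARIBO RIBO-seq. The AHARIBO libraries were again lower without overlap, at a log2 fold change of -0.24 (SE 0.09, 95% interval -0.41 to -0.07) and an adjusted p of 0.0991. Without AHARIBO replicate 2 the log2 fold change was -0.32 and the adjusted p 0.0472, on the other side of the threshold, and without AHARIBO replicate 1 they were -0.15 and 0.676.

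A short non-coding Mycn transcript, ENSMUST00000151534.1 (681 nt), shares 161 of its 652 windows of 30 nt with the stretch before the Mycn coding part and 0 with the coding part itself. It held 56, 54 and 56 reads in standard and 55 and 53 reads in AHARIBO RIBO-seq. Reads were thus counted outside the Mycn reading frame in all 5 libraries, at 9.91 to 14.8 reads per 100 on the main transcript.

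Max, the obligate partner, had 16.0, 16.3 and 15.4 CPM in standard and 13.7 and 13.6 CPM in AHARIBO RIBO-seq. The methods did not overlap, but the log2 fold change of -0.22 (SE 0.12, 95% interval -0.46 to 0.01) did not pass the test, with an adjusted p of 0.294. With duplicate reads kept it was -0.46 (SE 0.14, adjusted p = 0.0861). The shorter form shown above had 0 to 11 more reads than the longer one in a library, so the counts hardly separate them, and the forms also differ outside the coding sequence. Of 30-nt windows in the Max coding sequence, 11.1% also occur in transcripts of other genes, and 8 processed pseudogenes that share windows with the Max transcript had 2 to 12 reads each in a library.

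Mycl (ENSMUST00000106252.8, chromosome 4, 122995944 to 123002485, plus strand) rested on 13, 9 and 5 reads in standard and 21 and 13 reads in AHARIBO RIBO-seq. This corresponded to 1.46, 0.993 and 0.793 CPM and to 1.84 and 1.30 CPM. At this depth no difference was detectable, with a log2 fold change of 0.51 (SE 0.39, adjusted p = 0.523). It was 0.22 without AHARIBO replicate 1 and 0.79 without standard replicate 1. The other tested coding transcript, ENSMUST00000030407.7, was at 0.88 (SE 0.45, adjusted p = 0.281), with 4 to 9 reads in a standard and 14 to 17 in an AHARIBO library, which do not overlap in CPM.

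Trp53 (ENSMUST00000005371.11, chromosome 11, 69580359 to 69591873, plus strand) had 145, 141 and 149 CPM in standard and 127 and 139 CPM in AHARIBO RIBO-seq. The AHARIBO libraries were lower, with a narrow gap to the lowest standard library, and the log2 fold change of -0.13 (SE 0.08, 95% interval -0.28 to 0.03) did not pass the test (adjusted p = 0.400). Without one library at a time it ran from -0.18 to -0.07, the latter without AHARIBO replicate 1. All 4 coding transcripts gave -0.13 to -0.12.

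Duplicate removal took 34.9% to 45.0% of the Trp53 reads, the most in AHARIBO replicate 1. Max lost 19.9% to 42.6% and Mga 5.97% to 11.6%. Footprints with the same ends cannot be told apart from copies here. With duplicates kept, Trp53 remained highest in the order and Mga was still called (adjusted p = 0.0363), while the log2 fold change of Trp53 was -0.05 in place of -0.13. A processed pseudogene, Trp53-ps, shares 33.7% of the 30-nt windows of the Trp53 coding sequence, but held 66 to 83 reads in a library where Trp53 held 937 to 1457.

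Mdm2 (ENSMUST00000020408.15, chromosome 10, 117688875 to 117710758, minus strand) had 26.9, 24.8 and 25.2 CPM in standard and 29.4 and 29.3 CPM in AHARIBO RIBO-seq. Both AHARIBO libraries were higher, at a log2 fold change of 0.19 (SE 0.09, adjusted p = 0.258), which did not pass the test.

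For Mdm4, the value depended on the transcript. The highest one (ENSMUST00000188090.6, chromosome 1, 132986220 to 133025416, minus strand) had 13.7, 12.6 and 14.9 CPM in standard and 14.3 and 18.2 CPM in AHARIBO RIBO-seq. The methods overlapped, and the log2 fold change was 0.25 (SE 0.12, adjusted p = 0.261). It was 0.08 without AHARIBO replicate 2, 0.42 without AHARIBO replicate 1 and 0.06 with counts summed per gene, none past the threshold. The other 4 coding transcripts ranged from -0.25 to 0.06, and none was called.

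The highest Mdm4 transcript has the same coding length of 1467 nt as ENSMUST00000067429.9 and 3625 nt more at the 3′ end, with a different 5′ end. This longer transcript held 10, 3 and 7 reads more than the shorter one in standard and 26 and 35 reads more in AHARIBO RIBO-seq. That is 6.09% ± 3.02 (SD, n = 3) of its reads against 17.5% ± 2.39 (SD, n = 2), without overlap. Since the pair was chosen after its values were seen, no test is given. Of the 30-nt windows in this 3′ stretch, 28.3% also occur in the processed pseudogene Mdm4-ps, which held 23, 27 and 17 reads in standard and 41 and 50 in AHARIBO RIBO-seq. Reads on the gene and on the pseudogene cannot be told apart there. In the Mdm4 coding sequence 27.7% of the windows also occur in transcripts of other genes, so its level and ratio carry this limit too.

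Another Mdm4 transcript went the other way. ENSMUST00000186645.1, annotated as a retained intron, had 5.60, 4.30 and 5.39 CPM in standard and 3.24 and 2.70 CPM in AHARIBO RIBO-seq. It was lower in both AHARIBO libraries (log2 fold change -0.76, SE 0.21, adjusted p = 0.0278). The 10 genes had 30 tested transcripts of other types (16 processed transcripts, 10 retained introns and 4 marked for nonsense-mediated decay), of which 2 were called, beside 4.51% of all transcripts. The one besides ENSMUST00000186645.1 was ENSMUST00000129405.1 of Mga (log2 fold change 0.38, adjusted p = 0.0106).

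The p53 target Cdkn1a had 12.2, 13.4 and 10.8 CPM in standard and 10.8 and 10.6 CPM in AHARIBO RIBO-seq. The AHARIBO libraries were lower by a margin far smaller than the spread of the standard libraries, and the log2 fold change of -0.20 (SE 0.13, adjusted p = 0.440) did not pass. It was -0.12 without standard replicate 2. Ccng1 (ENSMUST00000020576.7, chromosome 11, 40748552 to 40755311, minus strand) had 14.5, 13.6 and 15.1 CPM in standard and 13.6 and 12.8 CPM in AHARIBO RIBO-seq, with overlap (log2 fold change -0.11, SE 0.12, adjusted p = 0.680). This became -0.06 without AHARIBO replicate 2, -0.16 without AHARIBO replicate 1 and -0.21 with duplicates kept (adjusted p = 0.351).

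Ratios of per-kb levels within a library compare pairs of genes that act on each other or share a role, without reference to library size. The ratio of Mdm2 to Mdm4 was 1.88 ± 0.161 (SD, n = 3) in standard and 1.83 ± 0.310 (SD, n = 2) in AHARIBO RIBO-seq. That of Mycn to Myc was 1.60 ± 0.219 and 1.63 ± 0.314, and that of Cdkn1a to Ccng1 was 1.57 ± 0.248 and 1.49 ± 0.0519. For each of these 3 ratios the methods overlapped. In the two-sided exact permutation test over the libraries, adjusted over 4 ratios, p was 0.900 for each, but this test cannot go below 0.100 with 5 libraries, so these values do not show that the ratios were alike.

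The ratio of Mdm2 to Trp53 was 0.146, 0.139 and 0.134 in the standard libraries and 0.183 and 0.167 in the AHARIBO libraries. It was higher in both AHARIBO libraries, by 0.32 on the log2 scale, at p = 0.100 in the exact permutation test, the smallest that 2 against 3 libraries can give (adjusted p = 0.400 over 4 ratios). This test therefore could not place the difference below 0.05 with 5 libraries.

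**Figure D4:**
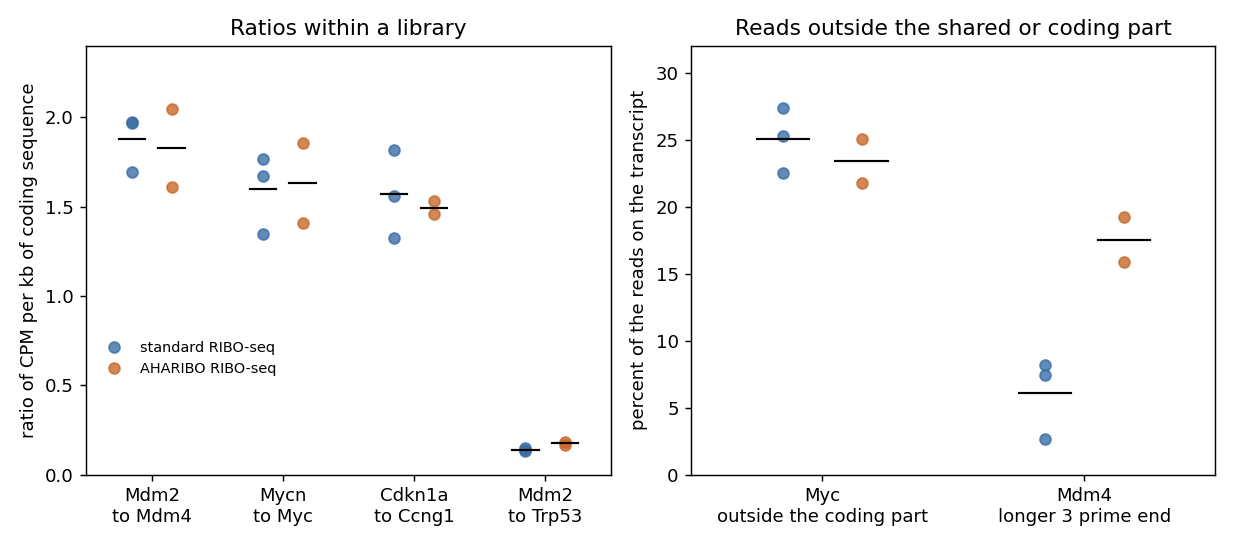
Left, ratios of CPM per kb of coding sequence between gene pairs in each library. Right, percent of the reads on a transcript that lie outside the Myc coding part, or that the Mdm4 transcript with the longer 3′ end has beyond the shorter one. Points are libraries, blue for standard (3) and orange for AHARIBO RIBO-seq (2), and bars are means. Only Mdm2 to Trp53 (left) and Mdm4 (right) show no overlap.

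Around the Myc members, 48 further genes were examined in 3 lists, and all were tested. Of these, 1 was higher, 1 lower and 46 did not pass, with a median log2 fold change of 0.00, beside the 5.12% called over all genes. Among 22 known Myc targets, Tfrc (the transferrin receptor) had 46.7 ± 4.38 CPM (SD, n = 3) in standard and 59.5 ± 2.69 (SD, n = 2) in AHARIBO RIBO-seq and rose (log2 fold change 0.35, adjusted p = 0.00948). Srm (spermidine synthase) had 90.4 ± 1.58 and 73.5 ± 6.34 CPM and fell (log2 fold change -0.30, adjusted p = 0.0211).

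None of 11 genes of the Max and Mlx network was called, including Mycbp2, a large ubiquitin ligase, at 0.20 (adjusted p = 0.181) and Mnt, a Max-binding repressor, at 0.00 (adjusted p = 0.993). None of 15 turnover factors and cofactors passed either. Huwe1, a ubiquitin ligase with Myc among its substrates, had 218 ± 16.0 and 259 ± 13.5 CPM and a log2 fold change of 0.25 at the threshold itself (adjusted p = 0.0500), and Ruvbl2, a helicase cofactor, had -0.16 (adjusted p = 0.240). The count of called genes in the 3 lists was 0 without standard replicate 1 or AHARIBO replicate 1, and 4 without standard replicate 2 or AHARIBO replicate 2.

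On the p53 side, 53 of 57 further genes were tested, of which 4 were higher, 4 lower and 45 did not pass, with a median log2 fold change of -0.05, beside the same 5.12% called over all genes. The genes below the limit were Trp63, Fas, Cdkn2b and Cdkn2c. Of 22 regulators, the DNA damage kinases Atm and Atr were called. Atm had 24.2 ± 0.495 CPM (SD, n = 3) in standard and 31.4 ± 2.48 (SD, n = 2) in AHARIBO RIBO-seq (log2 fold change 0.38, adjusted p = 0.0110), and Atr had 32.9 ± 1.55 and 41.2 ± 5.98 (0.32, adjusted p = 0.0289). Without AHARIBO replicate 1, Atr was at 0.16 (adjusted p = 0.678), and its call was also lost without any one of the standard libraries (adjusted p = 0.0708 to 0.0765). Their coding sequences have 9189 and 7905 nt and a GC content of 42.7% and 41.1%.

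Of 27 tested p53 targets, 2 rose and 3 fell. Trp53inp1, which acts in stress-induced cell death and autophagy, was at 0.38 (adjusted p = 0.0257) and the RNA-binding protein Zmat3 at 0.31 (adjusted p = 0.0402). The pro-apoptotic gene Bbc3 (Puma) had 19.3 ± 2.35 CPM (SD, n = 3) and 13.4 ± 2.05 (SD, n = 2), a log2 fold change of -0.51 (adjusted p = 0.00748). Phlda3, an Akt inhibitor, was at -0.36 (adjusted p = 0.0406) and Fdxr, a mitochondrial reductase, at -0.38 (adjusted p = 0.0461). The called targets thus went in both directions, and 22 did not pass. Without AHARIBO replicate 1, Phlda3 was at -0.22 (adjusted p = 0.582), and with library sizes in place of TMM its adjusted p was 0.0710. Zmat3 and Fdxr lost their call without any one library, and Trp53inp1 without any but standard replicate 2.

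Among 3 tested other CDK inhibitors, Cdkn1c (p57) fell from 43.2 ± 1.36 to 32.1 ± 3.26 CPM (log2 fold change -0.43, adjusted p = 0.00196). In the p53 family, Trp73 was near the limit, at 0.552 to 1.43 CPM, and did not pass (adjusted p = 0.772). The coding GC content of the 4 genes that fell on the p53 side was 60.7% to 72.2%, and that of the 4 that rose 41.1% to 56.9%. Of the 10 stem cell markers, 3 were lower (Sox2, Klf4 and Utf1, with 63.1% to 66.1% GC and log2 fold changes of -0.34 to -0.32). The other 7 did not pass, among them Nanog at 0.03 and Esrrb at 0.00. Over all genes, 5.12% of the highest coding transcripts were called. Called lower were 8.39% of genes with 60% to 65% coding GC and 19.9% of those above 65%. The part of GC content in these values was not tested. The count of called genes on the p53 side was 0 without AHARIBO replicate 1, 1 without standard replicate 1 and 4 without standard replicate 3.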

How the data were processed

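Ribosome profiling libraries of mESCs were grouped by the labels into standard (3) and AHARIBO RIBO-seq (2). The authors trimmed reads (Trimmomatic 0.36), removed rRNA and tRNA reads, aligned the rest to Gencode M17 transcripts with STAR, and deposited raw counts per transcript, with and without duplicates. Counts without duplicates were used here, and columns left unused numbered 0. How reads matching several transcripts were counted is not given in the sources used here. No inner transcript exceeded the one containing it in any of 11 nested pairs of these genes. Shared sequence was searched in windows of 30 nt on the same strand. Names, coding lengths and sequences came from Gencode M21, which held 99.83% of the transcripts.

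CPM used TMM factors, and transcripts reaching 1 CPM in any library were tested in edgeR 4.0.16 (R 4.3.3), with DESeq2 1.42.0 as an alternative; both were tested on simulated data. Intervals are 95% from the fit and cover the spread between these libraries. A named list gene has an adjusted p under 0.05, or else is one of the 2 with the highest CPM in a list without such a gene; markers and genes below the limit were named after their values were seen. The members and lists were chosen with earlier results of these data known. Alternatives covered the test, scaling, filter, duplicates, replicate block, transcript choice and each library. Counts summed per gene are sums over its coding transcripts where it has any.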

Additional observations from a re-analysis of the deposited data

How the results depend on the processing

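All 10 genes kept the direction of their difference under every alternative that gave an adjusted p. Of these 144 values, 140 also stayed on their side of the threshold. DESeq2 gave no adjusted p for 5 genes (Mycl, Max, Mdm4, Cdkn1a and Ccng1), and Mycl was below the limit with duplicates kept. The exceptions were Mga with the replicate block (0.31, adjusted p = 0.0798), with counts summed per gene (0.41) and without AHARIBO RIBO-seq replicate 1, and Mycn without AHARIBO RIBO-seq replicate 2. Leaving out each library gave 0.29 to 0.46 for Mga and -0.32 to -0.15 for Mycn, and 0 to 2 of the 10 genes called. A lone AHARIBO library is assumed there to vary like the others. The number called was 0 with the replicate block and with counts summed per gene. Whether the shared replicate numbers pair the samples could not be decided. The deviations of same-numbered libraries correlated at 0.04 and -0.08, but with 2 AHARIBO libraries their deviations mirror each other around the mean. With the block, 1792 of all transcripts were called in place of 3021, with 1 gene on the Myc side and 3 on the p53 side.

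DESeq2 called 267 transcripts, 0 genes on the Myc side and 1 on the p53 side. Counts summed per gene gave 147, 0 and 0, and 1 transcript a gene gave 960 calls. With duplicates kept, 1 gene on the Myc side and 3 on the p53 side were called. Without each library in turn, 510 to 3829 transcripts, 0 to 4 Myc-side genes and 0 to 7 p53-side genes were called. The 10 list genes called kept their direction in 149 of 149 values and their call in 81 of these.

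Differences in ratio reversed for Mdm2 to Mdm4 (-0.04, and -0.22 to 0.13 without each library), Mycn to Myc (0.03, and -0.17 to 0.23) and Cdkn1a to Ccng1 (-0.06, and -0.17 to 0.055, with 0.0090 when duplicates were kept). In the level order, 3 of 10 places were kept per kb of whole transcript, 4 with summed transcripts and 8 with duplicates kept. The cause of each of these changes was not tested. Few reads limit Mycl, and 5 libraries limit every test.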
